A study of Mus musculus with 6 samples.

Results

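Across RNA-seq libraries from V6.5 embryonic stem cells (ESCs, C57BL/6-129) after depletion of cohesin or condensin, 10 mouse genes of the primitive endoderm and of receptor-mediated endocytosis were followed. The genes are Lrp2, Cubn, Amn, Dab2, Pdgfra, Gata4, Gata6, Sox17, Sox7 and Hnf4a, which are 10 of the 21409 genes in the deposited tables. They were chosen from measured values, since Lrp2 stood far higher with the SMC1 hairpin than with the GFP hairpin, and were completed with genes of the same lineage and receptor system, so the SMC1 against GFP values below are a description and carry no test. A gene with several RefSeq transcripts was represented by the transcript with the most counts over the 6 libraries.

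The primitive endoderm is the extraembryonic layer that separates from the pluripotent epiblast in the blastocyst and goes on to form the visceral and parietal endoderm of the yolk sac. Its precursors make Gata6 and depend on FGF signaling through MAP kinase. Pdgfra, Sox17, Gata4 and Sox7 follow, while Hnf4a acts later in the visceral endoderm. Visceral endoderm takes up maternal proteins through megalin, the product of Lrp2, and through cubilin (Cubn), a receptor with no membrane span of its own that amnionless (Amn) carries to the cell surface, and the clathrin adaptor Dab2 binds the tail of megalin.

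All cells were ESCs grown on irradiated mouse embryonic fibroblasts, then for 1 passage on gelatin without them, and all were infected with lentivirus coding for a small hairpin RNA. The 6 libraries comprised 1 with a hairpin against GFP, the control, 1 with a hairpin against Smc1 (SMC1, a cohesin subunit), 2 with different hairpins against CapH2 (CAPH2, a condensin II subunit; R1 and R2), and 2 with different hairpins against Smc2 (SMC2, a subunit of both condensin complexes; R1 and R2). Per the labels, infected cells were selected with puromycin at 0.5 ug/ml for 48 hours and 1 ug/ml for 48 more hours, and were collected 96 hours after selection. Each library is 1 RNA sample and 1 hairpin, so a hairpin's own effects cannot be told apart from those of its target in the SMC1 library, and the 2 libraries of a condensin target are different hairpins and not repeats of one.

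The RPKM values rest on 18823245 to 23324537 reads per library. Against the GFP library, Smc1a stood at 39.9% with SMC1, Ncaph2 at 21.0% and 34.8% with the CAPH2 hairpins, and Smc2 at 70.7% and 71.9% with the SMC2 hairpins. The knockdown libraries that did not target these genes differed from GFP too. In them Smc2 stood at 152.4% to 158.9% of GFP, Smc1a at 115.6% to 130.2% and Ncaph2 at 67.3% to 80.9%. The 12 pluripotency markers summed to 2964 RPKM with GFP, 2476 to 2647 RPKM in the 4 condensin libraries and 1252 RPKM with SMC1. With SMC1, 11 of the 12 were at least 2-fold lower, against 8.64% of genes with a mean of at least 10 counts. The visceral endoderm products Afp and Ttr had 0 to 2 counts in every library, but other genes of that list were present. Apoe was at 593 RPKM with GFP and 158 RPKM with SMC1, Apoa2 at 31.7 and 15.1 RPKM, and Trf at 2.99 and 3.61 RPKM. Apob had 11 counts with GFP and 93 with SMC1. The summed RPKM of 12 fibroblast markers, the cell type of the feeder layer, was 53.2 with GFP, 58.0 to 80.8 in the condensin libraries and 115 with SMC1. In these bulk samples, more cells that express a gene and more RNA per cell cannot be told apart.

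The stretches of 250 bases before a transcription start are shown for the genes that the results turn on, namely Lrp2, Cubn and Dab2, which were lowest in the GFP library, and Hnf4a, which had no read with SMC1. They are RefSeq promoters in build GRCm38.p6, printed 5′ to 3′ on the strand of the gene, and the table held 8 promoters for 6 of the 10 genes. Sox17 and Sox7, also lowest in the GFP library, were not among these 6. Amn and Pdgfra were, but their stretches are not printed and held no match to the motifs below. Capitals mark matches, on either strand, to the GATA hexamers AGATAA and AGATAG as well as TGATAA and TGATAG, or to the SOX core ACAAT. The HNF4 motif CAAAGTCCA and the TATA box TATAAA were searched too and had no match in the printed stretches.
Lrp2, chr2:69586030-69586279, minus strand: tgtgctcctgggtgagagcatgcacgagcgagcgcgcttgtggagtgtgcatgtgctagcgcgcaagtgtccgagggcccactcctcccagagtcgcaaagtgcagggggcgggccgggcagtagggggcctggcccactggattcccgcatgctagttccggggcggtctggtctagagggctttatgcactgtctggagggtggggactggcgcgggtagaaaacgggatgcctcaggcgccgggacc
Cubn, chr2:13491877-13492126, minus strand: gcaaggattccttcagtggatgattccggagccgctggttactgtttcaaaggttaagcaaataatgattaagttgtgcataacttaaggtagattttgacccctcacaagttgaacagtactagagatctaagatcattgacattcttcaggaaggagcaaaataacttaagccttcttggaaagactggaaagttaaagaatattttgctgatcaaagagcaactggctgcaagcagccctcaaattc
Dab2, upstream start, chr15:6299539-6299788, plus strand: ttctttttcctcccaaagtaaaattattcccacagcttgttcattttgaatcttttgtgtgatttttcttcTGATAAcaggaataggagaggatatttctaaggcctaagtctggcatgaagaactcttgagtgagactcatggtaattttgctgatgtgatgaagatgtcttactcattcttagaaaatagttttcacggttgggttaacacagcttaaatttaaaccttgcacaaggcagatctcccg
Dab2, downstream start, chr15:6386498-6386747, plus strand: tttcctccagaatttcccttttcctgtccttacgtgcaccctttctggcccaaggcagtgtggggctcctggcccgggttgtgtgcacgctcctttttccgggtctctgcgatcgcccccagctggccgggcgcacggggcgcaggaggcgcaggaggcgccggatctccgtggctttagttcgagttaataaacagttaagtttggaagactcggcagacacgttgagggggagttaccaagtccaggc
Hnf4a, upstream start, chr2:163506607-163506856, plus strand: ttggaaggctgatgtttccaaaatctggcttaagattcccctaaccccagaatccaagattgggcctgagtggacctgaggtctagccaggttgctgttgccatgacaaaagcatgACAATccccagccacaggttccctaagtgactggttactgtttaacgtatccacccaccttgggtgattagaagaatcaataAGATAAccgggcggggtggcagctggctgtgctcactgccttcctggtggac
Hnf4a, downstream start, chr2:163546905-163547154, plus strand: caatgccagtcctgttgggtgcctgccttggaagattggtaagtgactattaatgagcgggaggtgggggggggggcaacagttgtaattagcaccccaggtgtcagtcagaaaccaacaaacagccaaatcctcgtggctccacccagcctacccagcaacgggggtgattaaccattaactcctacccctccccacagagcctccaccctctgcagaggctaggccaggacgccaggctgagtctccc
The Lrp2 stretch has 18 CpG dinucleotides and 66.4% G and C, against a median of 6 CpG and 52.4% over 32851 mouse promoters of the same length. The upper quartile of those promoters was 16 CpG, so such a number is common. The Cubn stretch has 2 CpG and 39.6% G and C. The upstream Dab2 start also has 2 CpG, and the downstream one has 17. The 2 Dab2 starts lie 86959 bases apart. So do the first bases of the Dab2 transcript that begins furthest upstream and of the counted one, so the downstream stretch belongs to the counted transcript. The 2 Hnf4a starts lie 40298 bases apart, and the counted Hnf4a transcript begins 40380 bases inside the GENCODE vM1 gene in mm9. A GATA hexamer lies 179 bases before the upstream Dab2 start and 52 bases before the upstream Hnf4a start, where an ACAAT core also lies 134 bases before the start. These letters are common, since 26.5% of all promoters hold a GATA hexamer and 27.7% hold ACAAT, while 12.4% hold TATAAA and 0.384% hold CAAAGTCCA. A match is a description of the sequence and not a binding site.

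Lrp2 codes for megalin, a very large scavenger receptor of the LDL receptor family, and lies on chromosome 2 at 69262392 to 69424124 of mm9, minus strand (NM_001081088, 15467 exonic bases). Its level was 6.55 RPKM with GFP (2180 counts) and 60.4 RPKM with SMC1 (17977 counts). It was 9.09 and 8.24 RPKM with CAPH2 R1 and R2 and 9.67 and 11.0 RPKM with SMC2 R1 and R2. The SMC1 library thus stood alone, and the other 5 lay close together with GFP at the bottom. SMC1 was 9.23-fold above GFP, with a 95% interval from counting error of 8.83 to 9.65, and 5.47-fold above the highest other library. Lrp2 went from 2749th to 64th of 14575 genes by raw count, a scale that also favors long transcripts, and from the 40.5th to the 90.1st percentile by RPKM. Its log2 change of 3.21 was the 67th highest of 14575 genes with a mean of at least 10 counts. Among the 12464 genes with a mean of at least 50 counts it was the 14th highest. Lrp2 was chosen on this change, so its rank is a description only.

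With the condensin hairpins the difference in Lrp2 from GFP was far smaller. The folds over GFP were 1.39 and 1.26 for CAPH2 and 1.48 and 1.69 for SMC2, and each of the 4 counting intervals lay above 1, the lowest from 1.19 to 1.33. Both SMC2 libraries lay above both CAPH2 libraries. That gap was a log2 difference of 0.26 ± 0.083 (SE, 2 libraries against 2), with an adjusted p of 0.998 in edgeR's quasi-likelihood test over 14651 genes.

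Cubn codes for cubilin, which pairs with megalin, and lies on the same chromosome at 13197965 to 13413503, minus strand (NM_001081084, 11320 exonic bases). Its level was 0.181 RPKM with GFP (44 counts) and 0.354 RPKM with SMC1 (77 counts). It was 0.534 and 0.558 RPKM with CAPH2 (141 and 119 counts) and 0.329 and 0.446 RPKM with SMC2 (84 and 103 counts). GFP was the lowest library and both CAPH2 libraries were the highest, an order unlike that of Lrp2. The folds over GFP were 1.96 with SMC1, 2.96 and 3.09 with CAPH2, and 1.82 and 2.47 with SMC2, and all 5 counting intervals lay above 1. An antisense gene of GENCODE vM1, Gm13270, shares 161 of the 11815 exonic bases of Cubn, and with unstranded counting its reads there cannot be told from those of Cubn.

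Amn, on chromosome 12 at 112509322 to 112514637 (NM_033603), codes for the membrane partner that cubilin needs. Its level was 1.46 RPKM with GFP, 1.27 RPKM with SMC1, 1.07 and 1.36 RPKM with CAPH2, and 1.58 and 1.45 RPKM with SMC2. The 6 libraries overlapped within counting error, since no fold over GFP had an interval that left out 1. The fold for SMC1 was 0.866, with an interval of 0.562 to 1.33, so a change of the size seen in Lrp2 lay outside that interval while a small one did not. On the log2 scale Amn was 0.21 below GFP with SMC1, and it was 0.66 above GFP when libraries were scaled to the ERCC spike-in RNAs. That scaling also put the median log2 change of all genes with SMC1 at 0.88, above that of Amn.

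Dab2, an endocytic adaptor and an early gene of the primitive endoderm, lies on chromosome 15 at 6336748 to 6390709 (NM_023118, 4517 exonic bases). Its level was 2.03 RPKM with GFP (197 counts), 5.52 RPKM with SMC1 (479 counts), 3.67 and 3.14 RPKM with CAPH2, and 2.43 and 2.84 RPKM with SMC2. SMC1 was the highest library, CAPH2 came next, then SMC2, and GFP was the lowest. The fold over GFP was 2.72 with SMC1 (2.30 to 3.23), 1.81 and 1.55 with CAPH2, and 1.20 and 1.40 with SMC2, where the interval for R1 included 1. All 4 Dab2 transcripts in the tables gave log2 changes with SMC1 of 1.34 to 1.44.

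**Figure D1:**
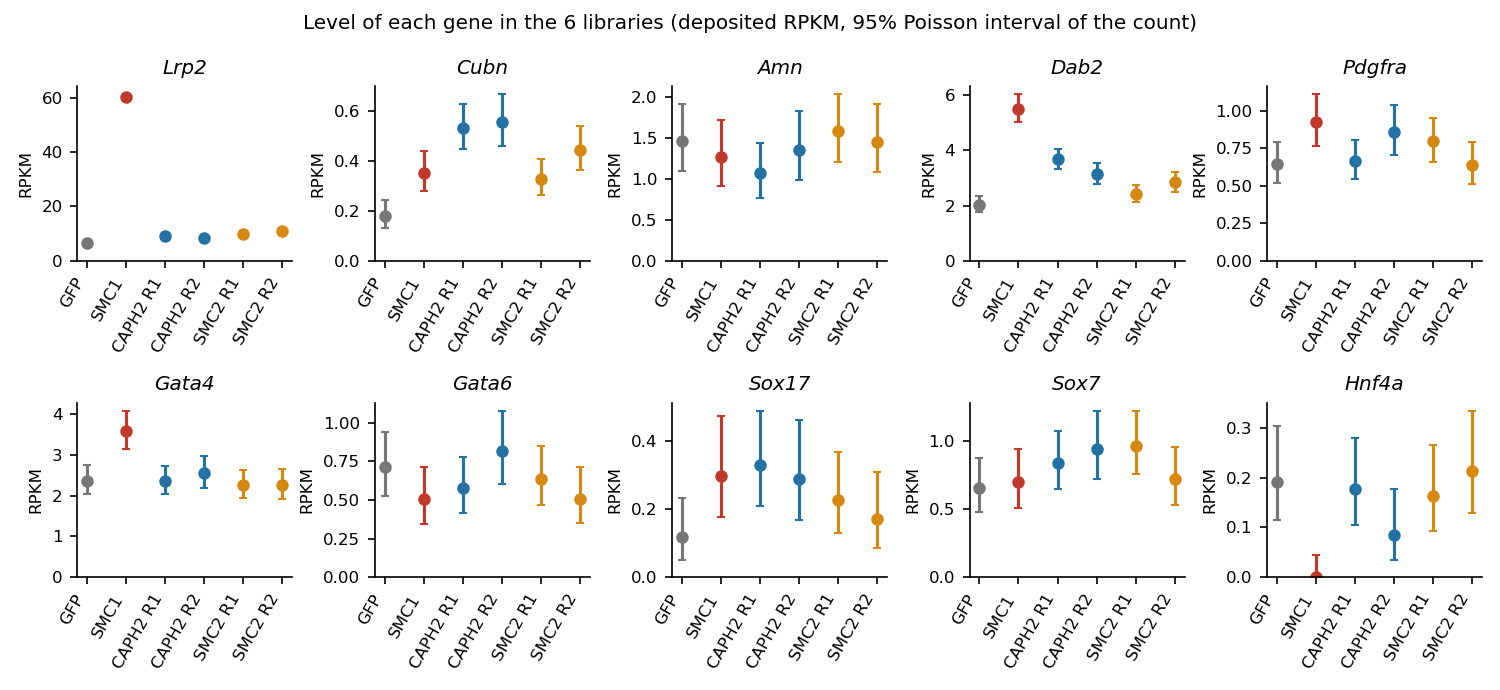
Level of each of the 10 genes in the 6 libraries. Each point is the deposited RPKM of 1 library on a linear axis from 0, with the 95% Poisson interval of its count, and the SMC1 point for Lrp2 at 60.4 RPKM stands far above the 5 others at 6.55 to 11.0 RPKM, while Gata6 and Amn overlap in all libraries.

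The transcripts of Dab2 also allowed a view of the read density in 1 exon. Read density alone does not give the share of transcripts that hold the exon. A ratio of 1 to the other exons means equal density only. Exon 10, 654 bases at 6379296 to 6379949 of chromosome 15, is present in NM_023118 and absent from NM_001037905, so its reads were taken as the difference between both rows. The exon held 30 reads with GFP, 99 with SMC1, 59 and 27 with CAPH2, and 29 and 45 with SMC2. Per base, the density in the exon over that in the other exons was 1.06 with GFP and 1.54 with SMC1, where the interval of 1.22 to 1.92 lay above 1. The ratio was 1.06 and 0.665 with CAPH2, where the interval for R2 lay below 1 (0.429 to 0.991), and 0.786 and 1.22 with SMC2. Summed over the 4 condensin libraries it was 0.942 (0.792 to 1.11), an interval that leaves out the spread between hairpins. Taken singly, the intervals of CAPH2 R1 (0.791 to 1.41) and SMC2 R2 (0.868 to 1.70) overlapped that of SMC1. Those of CAPH2 R2 and SMC2 R1 (0.514 to 1.16) lay below it. The GFP interval of 0.694 to 1.57 also overlapped that of SMC1. With 1 SMC1 library the difference has no replicate check.

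**Figure D2:**
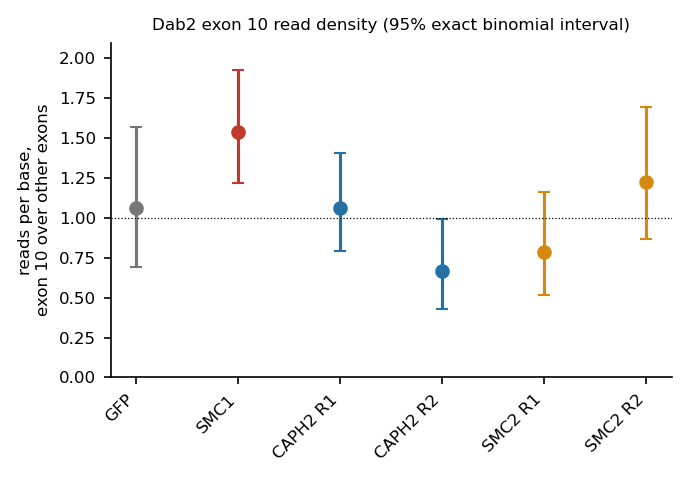
Read density in exon 10 of Dab2 over that in its other exons, by library. Points are ratios of reads per base with 95% exact binomial intervals, and the dotted line marks equal density: SMC1 lies at 1.54 and the others between 0.665 and 1.22.

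Pdgfra codes for the PDGF receptor alpha, which sustains primitive endoderm cells and is also made by fibroblasts. It lies on chromosome 5 at 75552191 to 75594229 (NM_001083316). Its level was 0.644 RPKM with GFP, 0.926 RPKM with SMC1, 0.666 and 0.857 RPKM with CAPH2, and 0.797 and 0.641 RPKM with SMC2. SMC1 was the highest library by a small margin, 1.44-fold above GFP (1.08 to 1.91) but 1.08-fold above CAPH2 R2. Of 9 fibroblast markers that passed the count minimum, 5 were at least 2-fold higher with SMC1, against 12.2% of all genes that passed it. Prrx1 was at 0.571 RPKM with GFP and 2.04 RPKM with SMC1, Twist1 at 5.33 and 18.5 RPKM, Col1a2 at 12.3 and 33.2 RPKM and Thy1 at 8.52 and 10.1 RPKM. Dcn had 1 count with GFP and 19 with SMC1, and Lum and Fap had 0 to 5 counts in every library. The part of fibroblast RNA in the levels of Pdgfra and Dab2 was not tested.

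Gata4 and Gata6 code for the zinc finger factors that drive the primitive endoderm program. Gata4 (NM_008092, chromosome 14, 63817752 to 63864097) had 2.37 RPKM with GFP, 3.59 RPKM with SMC1, 2.36 and 2.55 RPKM with CAPH2, and 2.26 and 2.27 RPKM with SMC2. SMC1 was the highest library, 1.51-fold above GFP (1.24 to 1.85), and the intervals of the 4 condensin libraries included 1. Gata6 (NM_010258, chromosome 18, 11052508 to 11085633) had 0.713 RPKM with GFP (49 counts) and 0.505 RPKM with SMC1 (31 counts). It had 0.577 and 0.815 RPKM with CAPH2 and 0.639 and 0.506 RPKM with SMC2. Gata6 was lowest with SMC1, level with SMC2 R2, and none of its 5 counting intervals left out a ratio of 1. The fold with SMC1 was 0.708 (0.437 to 1.13), a log2 change of -0.50 that became 0.37 under ERCC scaling. The median of all genes under that scaling was 0.88.

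Sox17 and Sox7 code for related SOX factors that act beside the GATA factors. Sox17 (NM_011441, chromosome 1, 4481009 to 4486494) had few reads: the GFP library held 8 counts, SMC1 held 18, CAPH2 R1 and R2 held 24 and 17, and the SMC2 pair 16 and 11. Its level was 0.119 RPKM with GFP and 0.172 to 0.329 RPKM in the other libraries, so GFP was the lowest. The fold with SMC1 was 2.52, with a wide interval of 1.04 to 6.69. Sox7 (NM_011446, chromosome 14, 64562543 to 64569569) had 0.654 RPKM with GFP, 0.701 RPKM with SMC1, 0.840 and 0.943 RPKM with CAPH2, and 0.965 and 0.720 RPKM with SMC2. GFP was again the lowest, but the SMC1 library lay next to it at 1.07-fold (0.692 to 1.65).

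Hnf4a codes for a nuclear receptor of the visceral endoderm and liver and lies on chromosome 2 at 163372924 to 163398643 (NM_008261). It had 18 counts with GFP, 0 with SMC1, 18 and 7 with CAPH2, and 16 and 19 with SMC2. SMC1 was the lowest of the 6, and the other levels ran from 0.085 RPKM (CAPH2 R2) to 0.214 RPKM (SMC2 R2). The count of 0 was set to a floor of 3 counts, or 0.0359 RPKM in this library. At that floor Hnf4a was 5.36-fold lower with SMC1 than with GFP, a value that leaves out the counting error of GFP. With the counting error of both libraries, the interval of the ratio ran from 0 to 0.255. The intervals of the 4 condensin libraries included 1.

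**Figure D3:**
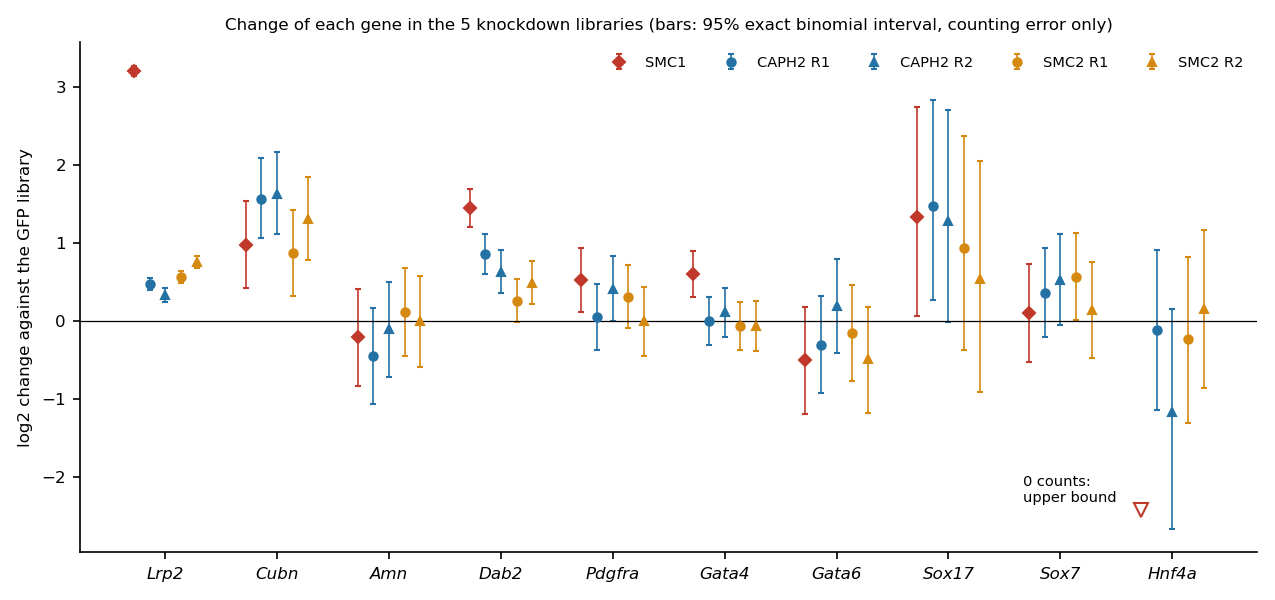
Log2 change of each gene against the GFP library in the 5 knockdown libraries, with 95% exact binomial intervals for counting error. The open triangle for Hnf4a is an upper bound from 0 counts; Lrp2 and Cubn lie above 0 in all 5 libraries, and Gata6 and Amn have intervals that cross 0 in all 5.

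Read together against SMC1 depletion, Lrp2, Dab2 and Sox17 were at least 2-fold higher than with GFP and Hnf4a was at least 2-fold lower. Over the 14575 genes with a mean of at least 10 counts, a minimum that all 10 genes passed, 12.2% were at least 2-fold higher and 8.64% at least 2-fold lower (20.9% either way), and nothing is read from these counts since this contrast chose the genes. The median log2 change of the 10 genes was 0.56, with Hnf4a at its floor, and that of all genes was 0.018. Set against the mean of the 4 condensin libraries in place of GFP, SMC1 was 6.36-fold higher for Lrp2, 1.83-fold higher for Dab2, 1.52-fold higher for Gata4 and 1.18-fold higher for Sox17. Cubn stood at 0.758-fold. On that reference, 1 of the 10 genes, Lrp2, was at least 2-fold higher (8.62% of all genes were) and 1, Hnf4a, at least 2-fold lower (5.89% of all genes).

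With CAPH2, the mean of both hairpins was at least 2-fold above GFP for 2 of the 10 genes, Cubn and Sox17, against 2.19% of all genes, and for none at least 2-fold below, against 0.768%. The log2 changes of the mean were 1.60 for Cubn, 1.38 for Sox17, 0.75 for Dab2 and 0.40 for Lrp2. With SMC2, Cubn alone passed 2-fold, with a log2 change of 1.10, against 1.52% of all genes, and none of the 10 was at least 2-fold lower, against 0.666%. Lrp2 was at 0.66, Sox17 at 0.75 and Dab2 at 0.38. The median over the 10 genes was 0.32 with CAPH2 and 0.26 with SMC2, beside medians of 0.0016 and -0.013 over all genes. All these changes use the same single GFP library. That library was the lowest of the 6 for 5 of the 10 genes, Lrp2, Cubn, Dab2, Sox17 and Sox7, as it was for 28.0% of all genes, and it was the highest for none, against 29.1%.

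**Figure D4:**
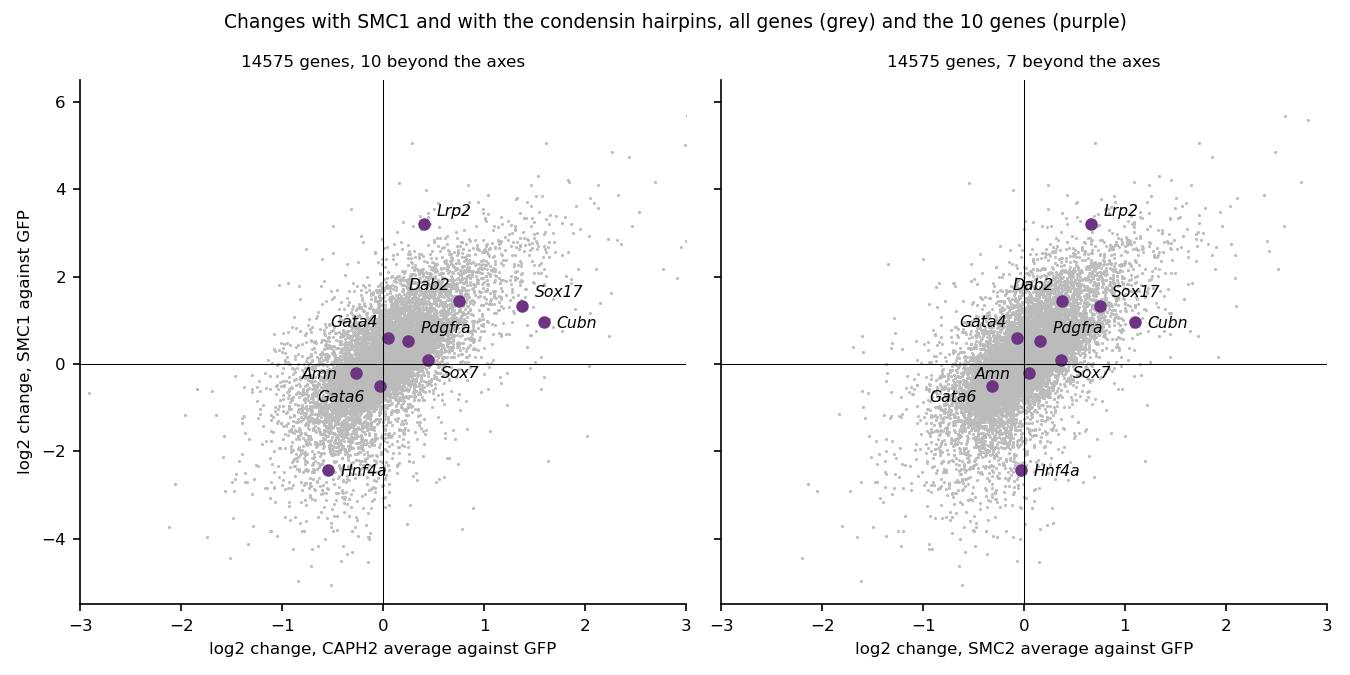
Log2 change with SMC1 (vertical) against the log2 change of the CAPH2 average (left) and the SMC2 average (right), all relative to the same GFP library. Each grey point is 1 of 14575 genes and purple points are the 10 genes; Lrp2 is high on the SMC1 axis and near 0.40 and 0.66 on the condensin axes, and Cubn lies farthest right at 1.60 and 1.10.

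By its place among the libraries, SMC1 was above all 5 others for Lrp2, Dab2, Gata4 and Pdgfra, where 37.5% of all genes were, and below all 5 for Gata6 and Hnf4a, where 34.7% were. These shares are near 1 in 3 across the genome, so the place alone does not set the 10 genes apart.

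The one comparison with 2 libraries in each group was CAPH2 against SMC2, which asks whether the 2 condensin targets differed. No gene of the 10 passed an adjusted p of 0.05 in edgeR, where 0.0205% of 14651 genes did, namely the targets Ncaph2 and Smc2 and a RefSeq row without a symbol, NM_025795, that spans the same bases as Ncaph2. At an unadjusted p under 0.05 there were 3 of the 10 genes, Lrp2, Cubn and Dab2, against 3.09% of all genes. DESeq2 also gave no adjusted call and had 1 of the 10 at that unadjusted level. Cubn averaged 0.546 ± 0.017 RPKM with CAPH2 and 0.388 ± 0.083 RPKM with SMC2 (SD, 2 libraries each), a log2 difference of SMC2 from CAPH2 of -0.49 ± 0.190 (SE, edgeR adjusted p = 0.998). Dab2 averaged 3.41 ± 0.377 RPKM with CAPH2 and 2.63 ± 0.293 RPKM with SMC2, a difference of -0.37 ± 0.135 (edgeR adjusted p = 0.998). Both CAPH2 libraries lay above both SMC2 libraries for Cubn, Dab2, Gata4 and Sox17, as for 17.2% of all genes, and below both for Lrp2 and Amn, as for 13.4%.

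The 10 genes were expressed at low to moderate levels in the control cells. In the GFP library the order by RPKM was Lrp2 (6.55), Gata4 (2.37), Dab2 (2.03), Amn (1.46), Gata6 (0.713), Sox7 (0.654), Pdgfra (0.644), Hnf4a (0.192), Cubn (0.181) and Sox17 (0.119). Neighbors whose ratio interval left out 1 were Lrp2 and Gata4, Dab2 and Amn, Amn and Gata6, and Pdgfra and Hnf4a. Gata4 and Dab2 did not differ beyond counting error, nor did Gata6, Sox7 and Pdgfra from their neighbors in that run, nor Hnf4a, Cubn and Sox17 from theirs. In percentiles of RPKM, Lrp2 was at the 40.5th and the other 9 were below the 25th, with Sox17 at 1.60.

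Among 12464 genes with a mean of at least 50 counts, those nearest to Lrp2 by Euclidean distance over the 5 log2 changes against GFP were Csdc2 (0.33), Sema3e (0.45), Onecut2 (0.48), Mmp25 (0.55) and Chst15 (0.63). Csdc2 had 1.06 RPKM with GFP, 11.0 RPKM with SMC1 and 1.38 to 1.58 RPKM in the condensin libraries. Sema3e, a secreted semaphorin, had 5.55, 40.8 and 7.36 to 8.61 RPKM in the same order. Of the 10 genes, 6 reached that minimum, and none of the other five was among those nearest. All these changes use the same GFP library.

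Other genes of the same processes were counted from fixed lists, and every SMC1 count in these lists is a description from 1 library each. Of 28 other primitive and visceral endoderm genes, 10 were at least 2-fold higher with SMC1 (12.2% of all genes were) and 5 at least 2-fold lower (8.64% of all genes), with a median log2 change of 0.28. Among those with a mean of at least 50 counts, the transcription factor Runx1 stood furthest above GFP, at 0.548 RPKM with GFP and 2.20 RPKM with SMC1, and the apolipoprotein gene Apoe furthest below, at 593 and 158 RPKM. Of 17 parietal endoderm genes, 6 were at least 2-fold higher and 0 lower, with a median of 0.69. Thbd (thrombomodulin) was at 0.512 RPKM with GFP and 1.83 RPKM with SMC1, and the laminin gene Lamc1 at 81.7 and 49.0 RPKM.

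Of 27 genes on the FGF and MAP kinase route, 3 were at least 2-fold higher and 5 lower, with a median of 0.0043. Over all genes, 12.2% were higher and 8.64% lower. Fgf4, the ligand that ESCs make, was at 178 RPKM with GFP, 36.6 RPKM with SMC1 and 106 to 136 RPKM with the condensin hairpins. Dusp6, a phosphatase that switches off ERK, was at 22.6 RPKM with GFP, 83.6 RPKM with SMC1 and 31.5 to 38.9 RPKM with the condensin hairpins. Among other genes that FGF signaling turns on, Etv4 was at 52.6 RPKM with GFP and 21.6 RPKM with SMC1, Spry4 at 21.0 and 16.1 RPKM, Etv5 at 55.7 and 58.9 RPKM and Spry2 at 56.7 and 87.0 RPKM, with no single direction. These 4 genes were chosen after their values were seen.

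The endocytic machinery around megalin was counted in the same way, beside 12.2% of all genes at least 2-fold higher with SMC1 and 8.64% lower. Of 13 other genes of the LDL receptor family and its chaperone, 2 were at least 2-fold higher with SMC1 and 0 lower, with a median of 0.35. Lrp1, another giant receptor of the family, was at 9.90 RPKM with GFP and 21.0 RPKM with SMC1, and Sorl1 at 10.6 and 6.00 RPKM. Of 29 clathrin adaptors and sorting factors, 2 were at least 2-fold higher and 0 lower, with a median of -0.099. Dab1, the neuronal relative of Dab2, was at 2.21 and 7.68 RPKM, and Fcho1 at 12.5 and 7.44 RPKM.

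Of 15 relatives of the GATA, SOX and HNF4 factors and their cofactors, 4 were at least 2-fold higher with SMC1 and 2 lower, with a median of 0.38. Over all genes, 12.2% were higher with SMC1 and 8.64% lower. Sox3, a neural and epiblast factor, was at 6.84 and 27.6 RPKM, and Sox15 at 46.9 and 4.11 RPKM. With CAPH2, 3 of the 28 other primitive and visceral endoderm genes and 1 of the 17 parietal genes were at least 2-fold higher, against 2.19% of all genes, and 0 of either list were lower. With SMC2 these counts were 1 and 0 higher, against 1.52% of all genes, and 0 lower. In CAPH2 against SMC2, 0 genes of any of these 6 lists passed an adjusted p of 0.05 in edgeR.

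**Figure D5:**
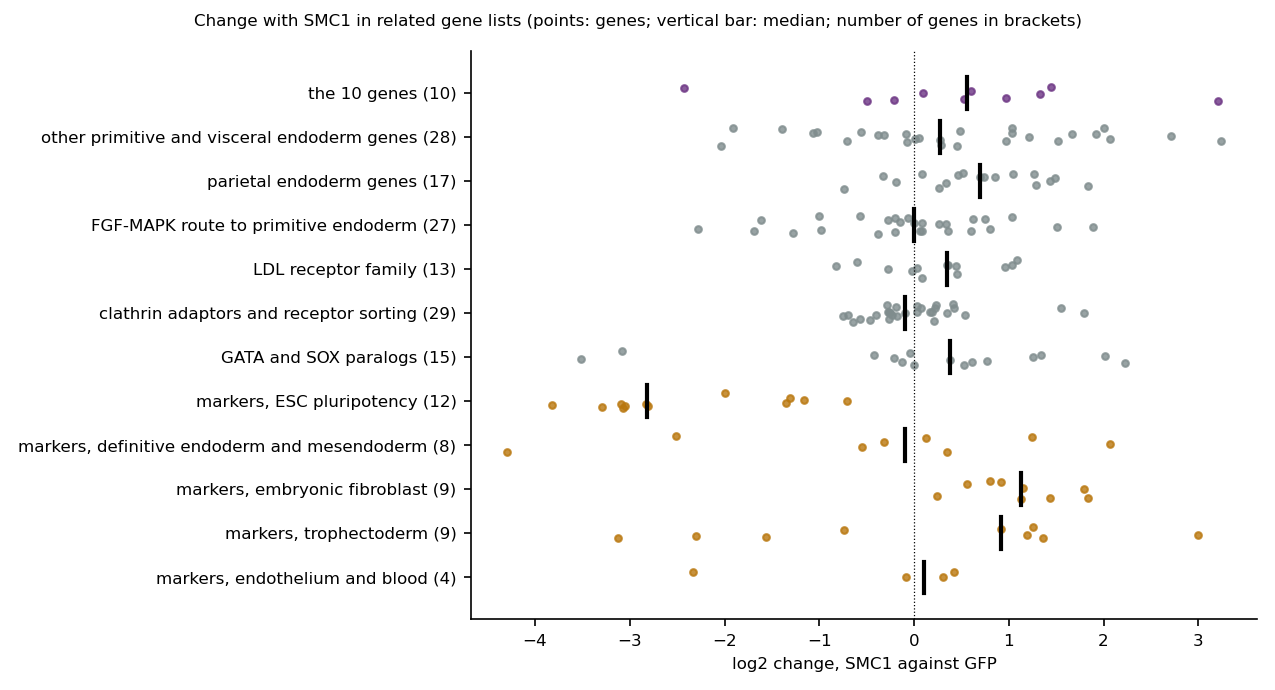
Log2 change with SMC1 against GFP for the 10 genes (purple), 6 related lists (grey) and 5 marker lists (orange). Points are genes, vertical bars are medians, and numbers in brackets are the genes with a mean of at least 10 counts; the pluripotency markers lie lowest with a median of -2.82, and the 10 genes have a median of 0.56.

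Markers of mesendoderm, of trophectoderm, and of endothelium and blood gave no single direction with SMC1. The fibroblast markers differed, with 5 of 9 at least 2-fold higher, 0 lower and a median log2 change of 1.13. Over all genes, 12.2% were at least 2-fold higher and 8.64% lower. Of 8 definitive endoderm and mesendoderm markers, 2 were at least 2-fold higher and 2 lower. Of 9 trophectoderm markers, 4 were higher and 3 lower. Cdx2 had the largest rise of these, from 15 counts with GFP to 107 with SMC1, a log2 change of 3.00. Its change was 1.53 with the CAPH2 average and 1.37 with the SMC2 average. Krt18 was at 61.0 RPKM with GFP and 156 RPKM with SMC1, Tfap2c at 51.2 and 5.85 RPKM, and Elf5 at 0 in 5 of the 6 libraries. Of 4 endothelial and blood markers, 0 were higher and 1, Pecam1, was lower. The part of such cells in the 10 genes' levels was not tested.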

How the data were processed

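RNA-seq was analysed in 6 libraries of V6.5 ESCs. The authors mapped reads to mm9 using Bowtie, counted exonic reads per RefSeq transcript and deposited raw counts and RPKM per transcript, the latter relative to the reads of the same library. ERCC spike-in RNAs were added in proportion to cell number but were not used to scale the deposited RPKM. Intervals and floors cover counting error only.

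Of 26073 RefSeq rows, 25349 had a symbol, which gave 21409 genes with 1 row each, 707 of them known only by accession. The members and lists were chosen with earlier results of these data known. Changes against GFP are log2 ratios of RPKM, the mean of both hairpins for CAPH2 and SMC2, with exact binomial 95% intervals on counts, and have no test because GFP and SMC1 have 1 library each. Nothing in the labels names separate cultures, so p-values measure only the spread between libraries. CAPH2 and SMC2 were compared in edgeR 4.0.16 (quasi-likelihood, TMM, at least 10 counts in 2 libraries, Benjamini-Hochberg adjustment over all 14651 genes), and the script was tested on simulated data. DESeq2 1.42.0 served as an alternative. Besides the 10 genes, named genes are the knockdown targets, the 5 nearest to Lrp2, and the largest rise and fall of each list among genes with a mean of at least 50 counts. Markers, some neighbors on the chromosome, and some genes chosen after their values were seen are named too.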

Additional observations from a re-analysis of the deposited data

How the results depend on the processing

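TMM and DESeq2 size factors left the counts of the 10 genes at least 2-fold from GFP as they were (4 with SMC1, 2 with CAPH2, 1 with SMC2). Scaling to summed ERCC counts moved the median log2 change of all genes to 0.88 with SMC1, 0.34 with CAPH2 and 0.59 with SMC2, and the counts of the 10 genes to 7 with SMC1, 3 with CAPH2 and 3 with SMC2. It turned the sign for Gata6 and Amn with SMC1 and with CAPH2, and for Gata4, Gata6 and Hnf4a with SMC2. Adding 1 to each RPKM gave 2 genes with SMC1 and 0 with either condensin target. Keeping the 4 genes with at least 1 RPKM in GFP gave 2, 0 and 0, and left 3 genes with SMC1 outside the range of the other libraries in place of 6. The mean of the 4 condensin libraries as reference, chosen after seeing the data, gave 2 genes with SMC1. Leaving out 1 hairpin gave 2 to 3 genes with CAPH2 and 0 to 1 with SMC2, the 0 being without SMC2 R2.

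In CAPH2 against SMC2, 3 genes passed an adjusted p of 0.05 in edgeR, 1 with DESeq2 size factors, 7 in the DESeq2 Wald test, 8 without the count filter and 1 over all RefSeq rows. Leaving out 1 library gave 1 to 331 genes: 25 without CAPH2 R1, 331 without CAPH2 R2, 5 without SMC2 R1 and 1 without SMC2 R2, each with the lone library assumed to vary like the other pair. With the replicate number as a block, 60 genes passed, but the R1 and R2 deviations of the groups correlated at 0.0971 over only 2 pairs of different hairpins, so the numbers do not pair the libraries. None of the 10 genes passed in any of these fits, and the lowest adjusted p of any was 0.0669, for Dab2. The log2 difference of SMC2 from CAPH2 changed sign without CAPH2 R2 for Gata6 (0.0048), Sox7 (0.021) and Pdgfra (0.13), and without SMC2 R2 for Sox7 (0.13) and Pdgfra (0.084). Over the fits that leave out 1 library it ran from -0.50 to 0.0048 for Gata6, from -0.29 to 0.13 for Sox7 and from -0.24 to 0.13 for Pdgfra. The causes were not tested. Of the values of single genes under these alternatives, 206 moved by less than their error or kept their direction and call, 39 moved by more, and 5, all in CAPH2 against SMC2, reversed. Sign changes of changes under 2-fold against GFP, such as those under ERCC scaling, are counted among the 206 and the 39. Depth limits the low genes: the interval of the SMC1 fold of Sox17, with 8 counts in GFP, runs from 1.04 to 6.69.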

Other observations

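The nearest genes on either side of the 10 genes, 20 neighbors in all with a mean of at least 10 counts, had a median log2 change with SMC1 of 0.17. Of these, 3 were at least 2-fold higher, against 12.2% of all genes, and 3 at least 2-fold lower, against 8.64%. The neighbors of Lrp2 lay close to the median of all genes, with Spc25, a kinetochore gene, at 58.4 RPKM with GFP and 60.2 RPKM with SMC1, and Bbs5, a gene of the primary cilium, at 6.71 and 7.26 RPKM. The neighbors of Cubn were alike, with Rsu1 at 45.1 and 48.1 RPKM and Trdmt1 at 4.09 and 4.40 RPKM. Kit, the receptor gene 377 kb from Pdgfra, was at 28.1 RPKM with GFP and 6.67 RPKM with SMC1, lower while Pdgfra was 1.44-fold higher. Neil2, 5.39 kb from Gata4, was at 14.3 and 3.72 RPKM. Kit and Neil2 had the largest falls of the 20, and Fam167a, also beside Gata4, had a log2 change of -1.16. The 3 that were at least 2-fold higher were Xkr4 beside Sox17 (1.51), Mib1 beside Gata6 (1.13) and Ttpal beside Hnf4a (1.02). The 20 neighbors were set by position, and each value is from 1 library.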
